A study of Mus musculus with 5 samples.

Results

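Regions of the mouse genome where RNA polymerase II gave a peak in adult kidney and adult liver, and in none of brain, lung and spleen, numbered 5248 of 186413 (2.82%). They were chosen by the authors' peak positions in all 5 tissues. A window of 250 bp on either side of every position was drawn, overlapping windows of all tissues were merged, and a region was kept when it held a position from kidney and from liver and none from the other 3. The peaks, and the reads behind them, come from the same libraries, so read numbers in the 5 libraries describe these regions and do not test the choice. Neighbouring regions up to 5 kb apart were joined, which gave 3391 places. Positions fit the mouse assembly mm9. No annotation or sequence of that assembly was used here, so the regions are named by chromosome and position, no gene or promoter was assigned to them, and no sequence is shown. For the same reason the tissue labels were not set against marker genes.

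The kidney and liver samples, and the brain, lung and spleen samples they are set against, were whole organs dissected fresh from adult FVB mice, an inbred albino strain. The labels give no genotype beyond the strain, and neither the sex nor the number of animals. Chromatin fixed with formaldehyde was precipitated with an antibody against RNA polymerase II, and 1 library per tissue was sequenced. There was no input or control library among the files used. With no replicate, differences between tissues carry no test and no p-value, and all intervals below are 95% exact binomial intervals that cover counting error only. They also treat every read as an independent molecule, which PCR copies are not. An organ holds many cell types, so more cells with polymerase at a site and more polymerase per cell cannot be told apart.

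RNA polymerase II transcribes protein-coding genes. In such experiments it gathers near gene starts, where it often pauses, and it is spread along the bodies of genes that are transcribed heavily. Kidney and liver are distinct organs that share much metabolic work. The proximal tubule of the kidney and the hepatocyte of the liver both make glucose, break down amino acids and fructose, oxidise fatty acids, and take up and modify foreign compounds. Both also rely on transcription factors of the HNF1 and HNF4 families, which are scarce or absent in most cells of brain, lung and spleen.

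The libraries held 13786536 reads for kidney, 14964934 for liver, 10292262 for brain, 10846976 for lung and 13283124 for spleen. The kidney and liver only regions made up 7.16% of the 73308 regions with a kidney peak and 9.94% of the 52788 regions with a liver peak. Among regions with peaks in exactly a pair of tissues, kidney and lung gave 6571, brain and lung 5709 and kidney and brain 5510. Kidney and liver came next with 5248, followed by liver and brain with 2025, liver and lung with 2021 and lung and spleen with 1741. Each pair's number also depends on how many peaks each list held, which was 81375 in kidney, 57816 in liver, 91712 in brain, 72971 in lung and 31594 in spleen.

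Most of the kidney and liver only regions held few reads, and a small number stood far above the rest. Their median was 20 reads in kidney (quartiles 16 and 28, range 1 to 206) and 24 in liver (quartiles 18 and 38, range 2 to 1273). The other libraries gave medians of 5 in brain (range 0 to 53), 7 in lung (0 to 101) and 6 in spleen (0 to 85). Over all other regions the medians were 9 in kidney, 7 in liver, 8 in brain, 7 in lung and 6 in spleen. The kidney median was 14 in regions with a kidney peak alone and 19 in kidney and lung only regions. Regions with a liver peak alone had a liver median of 16. Where all 5 tissues had a peak, the medians were higher, at 46 in kidney and 54 in liver. In all, the kidney and liver only regions took 0.924% of kidney reads and 1.22% of liver reads, against 0.295% of brain, 0.359% of lung and 0.253% of spleen reads.

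**Figure D1:**
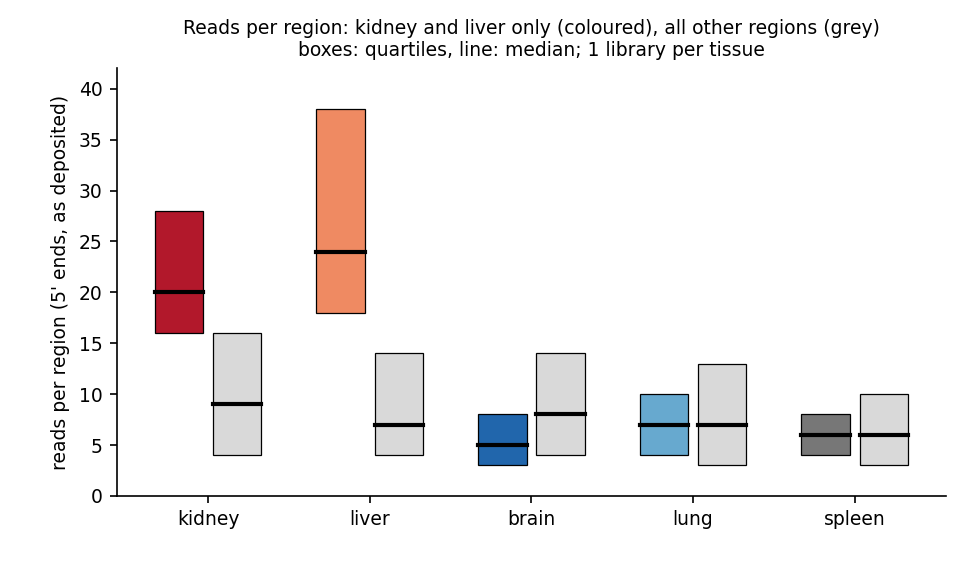
Reads per region in each library, for the 5248 kidney and liver only regions (coloured, left of each pair) and all other regions (grey). Boxes span the quartiles and the line is the median: 20 reads in kidney and 24 in liver for the kidney and liver only regions, against 5 to 7 in brain, lung and spleen. Reads were not adjusted for region length.

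A region without a peak still holds reads, and the label "kidney and liver only" is a statement about peaks. After scaling by medians of ratios, which sets the typical region with reads in every tissue to equal levels, kidney and liver both lay above all 3 other libraries in 4571 regions (87.1%). In 677 (12.9%) at least 1 other library reached the lower of kidney and liver, and in 176 it reached both. The highest of the other libraries was spleen in 3342 regions, lung in 1158 and brain in 748. The spleen library has the lowest scaling factor, 0.671, so a given read number counts for more there. Lung was empty in 51 regions, spleen in 71 and brain in 221, and 4 regions had no read in any of the 3.

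The values on both sides of the peak rule overlapped. The median fold of the lower of kidney and liver over the highest other library, with counts under 3 raised to 3, was 1.72 (quartiles 1.23 and 2.49). In 268 regions that highest other library had been raised to 3. The closest that a brain, lung or spleen position came to the edge of a region was 255 bp, as it did in 14 regions, of which the 3 that come first by name are given. At 127520881 to 127522606 on chromosome 10 there were 73 kidney and 33 liver reads, but also 44 in brain, 42 in lung and 24 in spleen. At 77771266 to 77772121 on the same chromosome there were 28 kidney, 18 liver, 15 brain, 9 lung and 5 spleen reads. At 106049701 to 106050426 on chromosome 12, kidney and liver held 22 reads each, brain 9, lung 6 and spleen 5. In normalised reads all 3 other libraries lay above liver in the first example, spleen only through its scaling factor of 0.671. All lay below both organs in the later examples.

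Just outside the rule, regions with peaks in kidney, liver and lung numbered 2796 and had medians of 27.5 kidney, 29 liver and 20 lung reads. Regions with peaks in kidney, liver and brain numbered 1883, with medians of 24, 25 and 19 reads in those tissues, and those of kidney, liver and spleen numbered 243, with 22, 26 and 18. On the other side, 118 of 26409 regions with a kidney peak alone held at least 24 liver reads, the median of the kidney and liver only regions. Likewise 79 of 21277 regions with a liver peak alone held at least 20 kidney reads. A peak of brain, lung or spleen lay within 1 kb of the edge of 1476 kidney and liver only regions (28.1%), and within 5 kb of 3593 (68.5%). Lung peaks were within 1 kb of 1040, brain peaks of 767 and spleen peaks of 318.

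Regions high in both organs by a wide margin were few. At least 20 reads in kidney and in liver, with the lower normalised count at least 4 times that of each other library, were found in 402 of the 5248 (7.66%). The same held for 482 of all 186413 regions (0.259%). The peak rule used this contrast, so nothing is read from the difference between those shares. Of the 80 remaining regions, 49 had peaks in kidney, liver and at least 1 other tissue, 22 in kidney alone and 6 in liver alone. The 402 regions lay in 254 places, and 239 of them (59.5%) were in places of 3 or more kidney and liver only regions. In 97 of the 402 the highest other library had been raised to 3 reads. With scaling by total reads 397 were called, of which 275 were called under both scalings. Without spleen in the comparison the count was 803. With narrower windows, or windows of 500 bp to each side, it was 195 or 138.

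The share of regions that were high in both organs moved with the distance to peaks of other tissues. It was 2.17% of the 600 regions with such a peak up to 500 bp away, 6.52% of the 2993 with one from there to 5 kb, and 11.7% of the 1655 with none within 5 kb. These distances and reads come from the same libraries. Being high in both organs asks for few reads in brain, lung and spleen, whose peaks set the distances, so part of this order is built in. The share by distance over all regions was not computed. Median reads in the same groups were 21, 20 and 21 in kidney and 23, 24 and 26 in liver, against 7, 6 and 3 in brain, 8, 7 and 6 in lung and 6, 6 and 5 in spleen.

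The strongest contrast was on chromosome 4 from 49561991 to 49562656. This region held 206 kidney and 1029 liver reads, against 2 in brain, 7 in lung and 4 in spleen. Kidney, the lower of both, was 30.6-fold over lung (14.6 to 77.0) in normalised reads. It was a place of its own, with a lung, brain or spleen peak 1085 bp from its edge. This region and the 7 that follow were ranked by this fold among regions with at least 50 reads in both organs, 1 per place, and the intervals make no allowance for having been ranked.

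The other 7 had folds of 10.3 to 11.3, and their intervals overlapped each other. On chromosome 19, from 43867666 to 43868716, kidney held 147 and liver 301 reads, with 4 in brain, 12 in lung and 8 in spleen, and kidney was 11.3-fold (5.58 to 26.6) over spleen. On chromosome 2, from 172984716 to 172985286, there were 65 kidney and 155 liver reads, against 3 in brain, 6 in lung and 1 in spleen. On chromosome 5, from 138530216 to 138530771, there were 90 kidney and 210 liver reads, and 5 or 6 in each other library. In these 3 regions, as on chromosome 4, liver was the higher organ.

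The remaining 4 were close to even between the organs. The region on chromosome 5 from 115418671 to 115419236 held 69 kidney and 68 liver reads, against 1 in brain, 6 in lung and 2 in spleen, and belonged to a place of 9 kidney and liver only regions. On chromosome 10, from 98695431 to 98696001, kidney held 53 reads and liver 62, brain none, lung 1 and spleen 3. On chromosome 11, from 101228856 to 101229431, kidney held 139 and liver 130, against 9 in brain, 12 in lung and 4 in spleen. On chromosome 5, from 66444031 to 66444556, kidney held 101 and liver 90, against 2 in brain, 8 in lung and 5 in spleen. Intervals of the ratio of kidney to liver included 1 in all 4, as with 0.622 to 1.34 on chromosome 10.

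The signal at these regions was a narrow rise on a raised base. Within 250 bp of the midpoint, density was 1.77 times that of the sequence 1 to 5 kb away in kidney (1.76 to 1.78) and 1.90 times in liver (1.89 to 1.91). The values were 1.06 in brain, 1.09 in lung and 1.16 in spleen. Regions that had a peak in each of the 5 tissues stood out more, at 4.17 in kidney and 5.20 in liver, without 4 that held at least 1000 reads in every library. The kidney and lung only regions resembled the kidney and liver only ones, with 1.75 in kidney and 1.81 in lung. In the sequence away from the centre, the mean in the leftmost bin, centred 4975 bp before the midpoint, was 17.6 normalised reads per kb and region in kidney and 22.4 in liver, against 7.40 in brain, 8.51 in lung and 11.6 in spleen. Spleen's place above brain and lung there moves with its scaling factor, which is 1.06 when total reads set the scale.

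**Figure D2:**
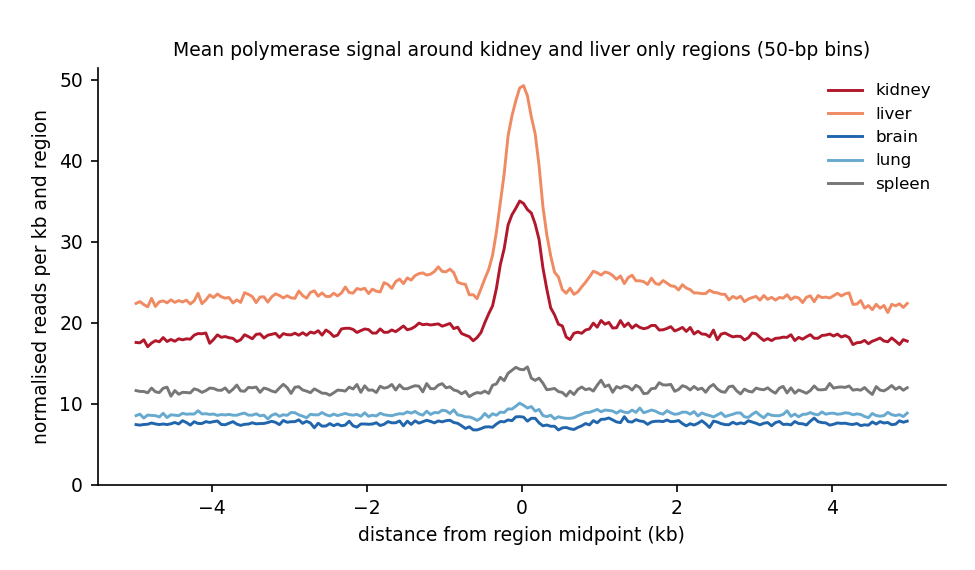
Mean normalised reads per kb and region in 50-bp bins around the midpoint of the 5248 kidney and liver only regions, 1 line per library. Kidney and liver reach 34.7 and 49.3 in the bin that follows the midpoint and stay above brain, lung and spleen out to 5 kb on both sides.

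Regions with no neighbour of their kind were sharper than those in rows, whose flanks hold the neighbours. Regions that stood alone in their place had centres of 2.15 times the flanks in kidney and 2.53 times in liver. Regions in places of 3 or more had 1.42 and 1.43. Where 1 kidney position lay in the region, 63.9% of kidney reads on the plus strand within 500 bp fell before it. In liver the share was 62.8%, and on the minus strand 62.9% fell after it. The positions come from the same libraries as these reads, so the pattern does not test whether a site was bound. At regions shared with further tissues the kidney share on the plus strand was 67.1%.

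The nearest kidney and liver positions within a region lay a median of 120 bp apart (quartiles 50 and 220), and within 50 bp in 1318 regions (25.1%). Distances of the other sets below are also those of the nearest positions. The merging limits this distance to 500 bp when each organ has 1 position, as in 4590 regions. Kidney and lung positions in kidney and lung only regions lay within 50 bp in 23.6%, and lung and spleen positions in lung and spleen only regions in 24.5%. Where each of the 5 tissues had a peak, the nearest kidney and liver positions were closer, at a median of 70 bp, with 40.2% within 50 bp. Several positions of an organ in 1 region can shorten the nearest distance, which was not adjusted for.

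Which organ was higher was not set by the rule, although a peak in both limits how far they can differ. Of the 5232 regions with at least 20 reads in kidney and liver together, 4236 (81.0%) were within 2-fold in normalised reads. Kidney was at least 2-fold over liver in 216, or 4.13% (3.61% to 4.70%), against 27.7% of all regions with that many reads. Liver was at least 2-fold over kidney in 780, or 14.9% (13.95% to 15.9%), against 18.5% of all regions. The fairer comparison is with the 19941 regions that had peaks in kidney, liver and at least 1 other tissue, since the same limit holds there. Of those, kidney led by 2-fold in 6.54% (6.20% to 6.89%) and liver in 10.0% (9.61% to 10.4%). Thus, with no matching for read number, liver-high regions were a larger share of the kidney and liver only regions by more than counting error. Kidney-high regions were a smaller share. The comparison regions held more reads, with medians of 36 in kidney and 38 in liver against 20 and 24. Shares by read number are given below, and the comparisons by class that follow are not matched for it either. By class, the kidney-high share of 4.13% was below the 8.44% (7.44% to 9.54%) among regions with peaks in kidney, liver and lung and the 5.34% (4.87% to 5.83%) among those with peaks in all 5 tissues. It was not apart by counting error from the 3.98% with a brain peak or the 4.15% with a spleen peak. The liver-high share of 14.9% was above the 6.64% (5.56% to 7.86%) with a brain peak, the 9.13% (5.81% to 13.5%) with a spleen peak and the 11.4% (10.8% to 12.1%) in all 5 tissues. Its interval, from 13.95%, touched that of the 12.7% with a lung peak (11.5% to 13.96%). Variation between animals or libraries was not measured, and kidney and liver only regions of 1 place are not independent.

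**Figure D3:**
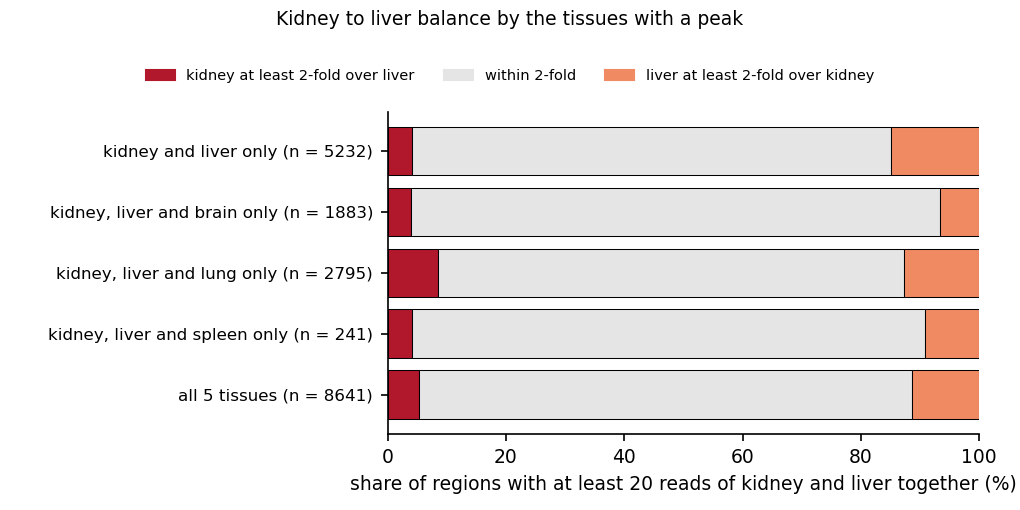
Share of regions in which kidney was at least 2-fold over liver (left), the organs were within 2-fold (middle) or liver was at least 2-fold over kidney (right), by the tissues that had a peak. Liver led by 2-fold in 14.9% of the kidney and liver only regions, against 6.64% with a brain peak, 12.7% with a lung peak, 9.13% with a spleen peak and 11.4% of regions with peaks in all 5 tissues.

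The lean to liver grew with the number of reads. Among kidney and liver only regions with at least 20 and fewer than 40 reads of both organs together, the median log2 ratio of kidney to liver was -0.01, and 2.64% were at least 2-fold to liver. The medians were -0.11 from 40 reads, -0.45 from 60, -0.92 from 100 and -2.01 from 200 reads upward, each group ending where the next begins. In the last group 62 of 81 regions were at least 2-fold to liver and none was so to kidney. A region can enter a higher group through 1 organ alone, so part of this order is built in. Among regions with peaks in further tissues the median for 200 or more reads was -0.63, with 31.8% at least 2-fold to liver and 6.19% to kidney. In every read group, kidney and liver only regions had the larger liver-high share and the smaller kidney-high share of both sets. Kidney-high shares were 1.63% against 2.39% from 20 reads, 5.05% against 5.42% from 40, 6.05% against 7.86% from 60 and 6.29% against 7.49% from 100. Liver-high shares from 40 reads were 8.32% against 2.97%. Intervals were not computed by read group, so whether the kidney gap there exceeds counting error was not tested.

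**Figure D4:**
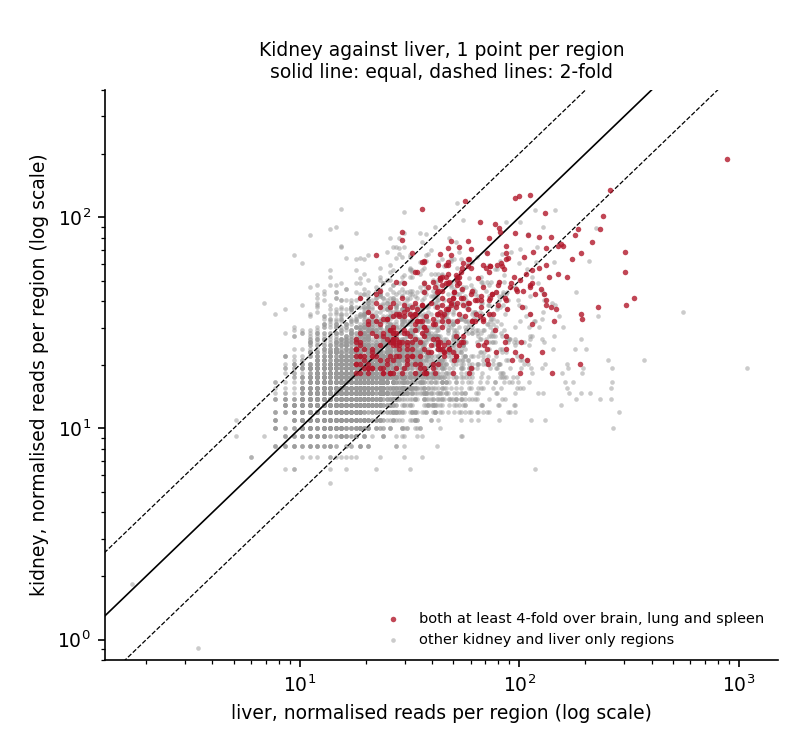
Normalised reads of kidney (vertical) and liver (horizontal) in each of the 5248 kidney and liver only regions, on log scales. The solid line marks equal levels and the dashed lines 2-fold; the 402 regions with both organs at least 4-fold over brain, lung and spleen are red, and the points with the most reads lie on the liver side.

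The regions that leaned most to liver were weak in kidney. On chromosome 9, from 21641146 to 21641811, liver held 1273 reads and kidney 21, with 7 in brain, 10 in lung and 6 in spleen. Liver was 56.6-fold over kidney (36.9 to 91.8). The 1273 liver reads came from 747 positions and strands, and counted that way the log2 ratio of kidney to liver was -5.15 instead of -5.82. On chromosome 14, from 41924241 to 41924761, liver held 313 reads and kidney 11, 26.6-fold (14.7 to 53.8), and on chromosome 1, from 21234661 to 21235186, 333 and 13, 23.9-fold (13.8 to 45.4). On chromosome 9, from 107572451 to 107573081, liver held 304 reads against 15 in kidney, and on chromosome 19, from 4056021 to 4056531, 137 against 7. In the regions on chromosomes 14, 1 and 19, normalised kidney reads did not exceed the highest of brain, lung and spleen. The kidney fold over that library was 0.845 (0.310 to 2.42), 0.999 (0.384 to 2.78) and 0.808 (0.256 to 2.44). Each interval included 1. On chromosomes 14 and 1 that library was spleen, with 8 reads in each region, against 11 and 13 in kidney. Spleen reaches or passes kidney there through its scaling factor of 0.671. The authors list a kidney peak in each of these regions.

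The lean to kidney reached smaller ratios. On chromosome 3, from 96675576 to 96676091, kidney held 90 reads and liver 13, 7.41-fold (4.12 to 14.5), with 2 in brain, 6 in lung and 4 in spleen. A second region nearby, from 96641406 to 96642176, held 96 kidney and 16 liver reads, 6.42-fold (3.76 to 11.7). Farther along chromosome 3, from 98528211 to 98528796, kidney held 119 reads and liver 18, 7.08-fold (4.29 to 12.3), and the nearest brain, lung or spleen peak lay 288705 bp from its edge. On chromosome 13, from 55518286 to 55519046, kidney was 7.01-fold over liver (3.69 to 14.7), and on chromosome 10, from 116386231 to 116386936, 6.17-fold (3.66 to 11.0). All 5 stood alone in their place, and the lower organ, liver, held 11 to 18 reads. These regions, and the 5 on the liver side, were ranked by this ratio, which their intervals do not cover.

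Part of the kidney and liver only regions stood alone and part lay in rows. Of the 3391 places, 2666 held 1 region, which is 50.8% of the regions. Another 406 places held 2, and 319 held 3 or more, with 1770 regions (33.7%). In 35 places there were 10 or more, up to 42. By summed reads, 263 of the 319 larger places (82.4%) were within 2-fold between the organs, 50 were at least 2-fold to liver and 6 to kidney. The log2 ratio of kidney to liver ranged over them from -2.80 to 1.54, with a median of -0.27. Its SD across places, from summed reads, was 0.67. The median SD among regions of 1 place was 0.48, from the reads of single regions. Single regions hold few reads, so the latter carries more counting error, and these SDs are not like measures. In 95 places every region leaned to liver, in 32 every region leaned to kidney, and in the rest the regions leaned both ways.

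Nearby regions often had a peak of kidney or liver too. The nearest region of another kind within 5 kb had a liver peak alone for 29.5% of the kidney and liver only regions, and a kidney peak alone for 21.7%. It had peaks in kidney, liver and 1 or 2 further tissues for 16.9%, and peaks in neither kidney nor liver for 10.2%. Among all other regions these kinds make up 11.7%, 14.6%, 6.24% and 47.2%. Nearest regions were not computed for other pairs of tissues, so these shares are not shown to be particular to kidney and liver. Regions with a peak in all 5 tissues were the nearest for 4.63% and make up 4.77%. Such a region lay within 5 kb of 14.6% of the kidney and liver only regions (13.7% to 15.6%). That share was 17.1% for those alone in their place and 9.49% for those in places of 3 or more. It was 11.3% for kidney and lung only regions, 8.44% for regions with a kidney peak alone and 8.60% for those with a liver peak alone.

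The place with the most kidney and liver only regions, 42, spanned 64.3 kb of chromosome 10 from 86990551 to 87054861. The span held 2681 kidney and 3769 liver reads, against 170 in brain, 452 in lung and 351 in spleen. All reads in the span are counted here, inside and outside the peak regions. In normalised reads per kb this was 38.2 in kidney and 50.2 in liver, against 2.56 in brain, 6.20 in lung and 8.14 in spleen. Kidney was 4.69-fold over spleen (4.20 to 5.26) and stood at 0.761 of liver (0.724 to 0.800). Spleen lies above lung here through its scaling factor of 0.671. Total reads would give factors of 0.867 for lung and 1.06 for spleen, which put lung above spleen. Folds of places were not recomputed with that scaling. Of the 55 regions in the span, 8 had a liver peak alone, 2 a kidney peak alone and 3 peaks in kidney, liver and a further tissue. From 5 to 25 kb past its left and right ends, kidney had 12.8 and 4.35 normalised reads per kb and liver 17.6 and 5.22. Across 10 equal parts of the span kidney varied from 29.9 to 45.2 and liver from 39.7 to 77.3, and the ratio of kidney to liver from 0.387 in part 1 to 1.08 in part 10.

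On chromosome 19 a place of 35 regions spanned 58.8 kb from 43856566 to 43915316 and leaned to liver throughout. It held 2059 kidney and 7615 liver reads, against 213 in brain, 415 in lung and 332 in spleen. Kidney stood at 0.289 of liver (0.276 to 0.304) and at 3.81-fold over spleen (3.39 to 4.29). As in the place on chromosome 10, spleen lies above lung through its scaling factor. Liver had its maximum, 302 normalised reads per kb, in part 2 of 10, where kidney also peaked at 62.9, and from part 4 onward liver stayed between 49.0 and 75.6 and kidney between 20.6 and 27.9. The ratio of kidney to liver was at most 0.474 in every part. None of the 51 regions in the span had a peak of brain, lung or spleen: 12 had a liver peak alone and 4 a kidney peak alone.

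A stretch of chromosome 15 held 3 of the 8 places with the most regions. Places of 17, 18 and 36 regions ran from 3260106 to 3309131, from 3324386 to 3362036 and from 3369156 to 3426736, with 15255 and 7120 bp between them, over 166631 bp. The largest held 1928 kidney and 2088 liver reads, against 176 in brain, 511 in lung and 309 in spleen. Kidney and liver were even there, with a ratio of 0.988 (0.929 to 1.05), and all 10 parts lay between 0.815 and 1.21. The ratio was 0.852 (0.784 to 0.926) in the place of 18 and 1.11 (1.02 to 1.20) in the place of 17. Liver, the lower organ in the last, was 2.58-fold (2.32 to 2.88) over lung.

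On chromosome 16 a place of 33 regions spanned 53.1 kb from 37580061 to 37633121. It held 1567 kidney and 2193 liver reads, against 223 in brain, 344 in lung and 310 in spleen. The ratio of kidney to liver was 0.765 (0.716 to 0.816). It was 0.538 in part 1 and 0.535 in part 2, against 1.11 in part 9 and 1.04 in part 10, with intervals that did not overlap between these ends. Liver was highest in part 1, at 56.5 normalised reads per kb, and kidney in part 10, at 32.5.

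**Figure D5:**
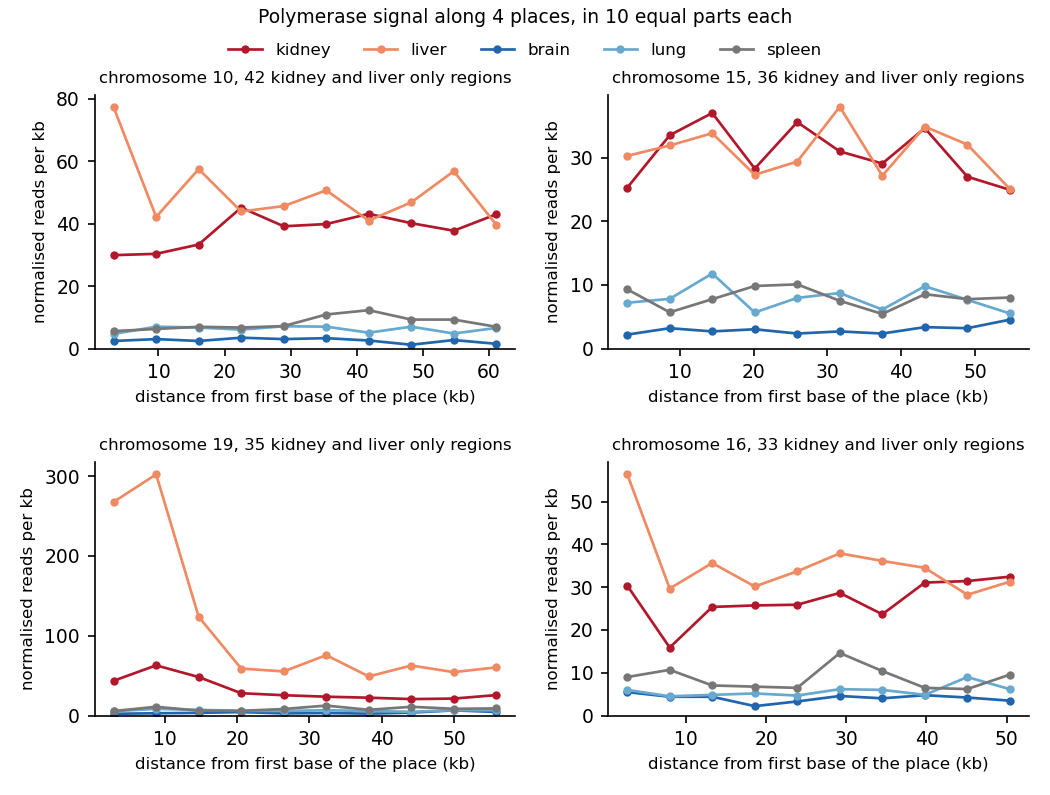
Normalised reads per kb in 10 equal parts of 4 places with the most kidney and liver only regions, by distance from the first base of the place, 1 line per library. Kidney and liver lie above brain, lung and spleen throughout; liver is highest near the left end on chromosomes 10, 19 and 16, while the organs run together on chromosome 15.

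Of the other places with many regions, 23 regions spanned 34.6 kb of chromosome 3 from 28594336 to 28628891, with 859 kidney and 1949 liver reads, against 124 in brain, 204 in lung and 189 in spleen. Kidney stood at 0.472 of liver (0.435 to 0.511). On chromosome 2 a place of 20 regions from 155376596 to 155417996 held 1254 kidney and 1565 liver reads, against 317 in brain, 420 in lung and 287 in spleen, a ratio of 0.858 (0.796 to 0.924). There the ratio was 0.498 in part 1 and 1.48 in part 10. Brain and lung were higher in this span than in the others named, at 7.42 and 8.95 normalised reads per kb, save for a higher lung level on chromosome 2 from 31328476 to 31355576.

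By kidney and liver reads together in their regions, the leading places were those on chromosomes 19 and 10 and that last place on chromosome 2, of 16 regions over 27.1 kb. It had the highest kidney and liver levels of the named places. Its span held 1988 kidney and 4172 liver reads, against 172 in brain, 364 in lung and 214 in spleen, or 67.2 and 132 normalised reads per kb in kidney and liver. Kidney was 5.67-fold (5.07 to 6.36) over lung and 0.510 of liver (0.483 to 0.538). The signal went on past its right end, with 56.4 normalised reads per kb in kidney and 129 in liver from 5 to 25 kb away. Of its 24 regions, 5 had peaks in kidney, liver and a further tissue and 3 a kidney peak alone.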

How the data were processed

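The members and the values described were chosen with earlier results of these data known. Per the submitters' processing notes, reads were aligned with Bowtie. No source used here names its version and settings, the build, the peak caller or the peak threshold. Each tissue has 2 files that the authors deposited: aligned reads, 1 per line, and peak positions without width or score. Read ends on each chromosome fit mm9 and run past the end of chromosome 7 in GRCm38, so the GRCm38 gene, microRNA and promoter tables were not used.

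Reads of 34 to 36 bases were counted once, at their 5′ end. This left out 4 to 15 lines per library. Libraries were scaled by medians of ratios, taken over the 8222 regions where each had 20 or more reads: 1.09 for kidney, 1.17 for liver, 1.03 for brain, 1.13 for lung and 0.671 for spleen. Intervals of ratios are 95% exact conditional binomial (Clopper-Pearson) intervals. Ratios for single regions raise counts under 3 to 3. With 1 library per tissue there was no test between tissues. Calling was run on simulated counts, with folds added only in regions averaging at least 20 normalised reads over the libraries. Brain, lung and spleen held fewer in most kidney and liver only regions, so the simulation does not cover calls at such low counts. Merging was checked on a small made-up set of positions.

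Named items followed a rule: the 8 places with the most regions, the 3 with the most kidney and liver reads, the 8 regions with the largest fold at 50 or more reads in both organs, the 5 leaning most to each organ, and the 3 nearest to a peak of another tissue. Planned gene positions, gene lists and sequence features need an annotation of the build and were not analysed. The work used SciPy 1.17.1, NumPy 2.4.6, Matplotlib 3.10.9 and pandas 2.3.3 under Python 3.11.15.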

Additional observations from a re-analysis of the deposited data

How the results depend on the processing

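Of 43 values recomputed under other settings, 24 stayed within 1.5 times the reported count or within its interval and 19 did not, and the cause was not tested unless the alternative itself sets it. The 5248 regions became 3492 with windows of 500 bp to each side and 8044 when lung peaks were not considered. The places stayed between 2526 and 4768. The median fold of 1.72 was 1.73 with scaling by total reads and 1.78 with 5′ ends moved by 100 bp. The 402 regions high in both organs were 100 at 50 or more reads, 1335 at 2-fold, 38 at 8-fold, 803 without spleen, and 195 or 138 with narrower windows or windows of 500 bp to each side. They were 397 with scaling by total reads, 371 with repeated reads counted once and 287 after thinning every library to the smallest. Regions at least 2-fold to kidney, 216, were 139 at 50 or more reads and 14 at 4-fold, and those to liver, 780, were 157 at 4-fold. Centre over flank was 1.87 in kidney and 2.06 in liver with flanks of 2 to 10 kb, and 1.75 and 1.87 with repeated reads counted once. Other tissues' peaks lay within 500 bp of 600 regions and within 5 kb of 3593. Of 36 values of named regions, 35 stayed within their intervals and 1 on chromosome 9 did not. Intervals of the folds are wide, such as 3.52 to 54.3 on chromosome 10, so staying within them says little about the scaling. With scaling by total reads the largest fold, 30.6, was 23.2, and the other ranked folds were 7.85 to 13.2. Direction was checked for the ratios of kidney to liver only, and none changed. No paired analysis was possible because each tissue has 1 library. Alternatives on gene starts and sequence were not run. Depth limits single regions: 28 kidney and 18 liver reads, on chromosome 10 from 77771266, gave a ratio of 1.67 with an interval of 0.889 to 3.20.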

Other observations

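The kidney and liver only regions were spread unevenly over chromosomes. They made up 4.28% of the regions of chromosome 4 (477 of 11147) and 4.23% of those of chromosome 15 (319 of 7535), but 1.37% of those of chromosome X (112 of 8205), 1.80% on chromosome 16 and 1.81% on chromosome 18. On X none of the 112 was high in both organs by the 4-fold limit. Chromosomes 2 and 10 held 52 such regions each, of 403 and 337 kidney and liver only regions. Of these, 24 on chromosome 10 lay in the place of 42 regions, and 10 on chromosome 2 in the place of 16. The same share over all regions was not computed by chromosome. On chromosome 15 the kidney and liver only regions include the 17, 18 and 36 regions of the neighbouring places described. Regions of 1 place are not independent, and these shares were not tested.

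Reads that repeated the position and strand of another made up 5.49% of kidney and 9.67% of liver reads in these regions, against 6.49% in brain, 6.49% in lung and 8.24% in spleen. Over each whole library the shares were 4.51% in kidney, 8.87% in liver, 7.12% in brain, 7.16% in lung and 8.52% in spleen. With repeated reads counted once, 758 regions were at least 2-fold to liver and 242 to kidney, against 780 and 216 with all reads.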
